A study of Mus musculus with 78 samples.

Results

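The livers described here came from the 4 groups of male B6C3F1 mice that drank 3.5 g/L dichloroacetic acid (DCA) for 10 weeks from 4 weeks of age. They were collected at the end of that exposure (S1-10) or after 22 (S1-32), 47 (S1-57) and 68 (S1-78) further weeks on deionized water. Members were chosen by these labels among the libraries the authors kept, which gave 24 of the 68 kept and 78 deposited libraries, 6 per group. Age-matched Control mice drank deionized water alone and gave 4 libraries at 10 weeks and 6 each at 32, 57 and 78 weeks. Each library held the RNA of 1 mouse, from sections of archived formalin-fixed liver, counted with TempO-Seq, which ligates 2 neighbouring probes where they meet their RNA and sequences the product. The panel covered 2755 genes, of which 2205 were tested. The labels do not say whether a section held a lesion. Time since exposure and age cannot be told apart within the 4 exposed groups, so their trend was also compared with that of the Controls.

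DCA inhibits pyruvate dehydrogenase kinase, which otherwise switches off the enzyme complex that feeds pyruvate into the tricarboxylic acid cycle. Hepatocytes make most plasma proteins and raise a subset of them, the acute phase proteins, on inflammatory signals. Collagens of the liver are made mainly by stellate cells and fibroblasts, while fetal proteins, cell cycle genes and stress-response genes are low in resting adult liver.

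Total counts ran from 919268 in mouse 28 of S1-57 to 3914572 in S1-32. The median total was 1965692 in S1-10, 3285609 in S1-32, 2659690 in S1-57 and 2684484 in S1-78. The lowest total among the Controls was 721372, in Control-32. The hepatocyte markers bore out the labelled tissue: none of the 14 on the panel was at 0 in a whole group, and apolipoprotein E was the most abundant in every group but Control-10, where FABP1 was. Levels below are CPM, counts scaled to a common library size after TMM normalization. The most abundant gene of a list is that with the highest group mean.

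Libraries of the later groups did not lie together. The first principal component of the 24 libraries held 38.1% of their variance and placed 6 libraries at 18.5 or more: mice 27, 28, 29 and 30 of S1-57 and mice 31 and 32 of S1-78. The other 18 lay between -21.8 and 6.7. The median squared Spearman correlation between libraries of a group was 0.939 in S1-10 and 0.958 in S1-32, but 0.789 in S1-57 and 0.719 in S1-78. Among the Controls it was 0.742 at 10 weeks and 0.73 at 32 weeks, below S1, but 0.839 at 57 weeks and 0.889 at 78 weeks, above S1. Cholangiocyte markers summed to 52.4, 127, 76.8 and 117 CPM in mice 28, 29, 30 and 32, against 228 to 415 CPM in S1-10. In mice 28 to 30, macrophage markers summed to 804 to 947 CPM, against 1791 to 2464 CPM in S1-32. Endothelial markers in these mice were at 631 to 962 CPM, against 1041 to 1336 CPM in S1-10 and 1174 to 1523 CPM in S1-32. Part of these values lay within Control ranges. Those of Control-57 were 139 to 220 CPM for cholangiocyte, 1217 to 8688 CPM for macrophage and 806 to 1097 CPM for endothelial markers. Macrophage markers reached down to 1006 CPM in S1-10 and 933 CPM in Control-32. Mice 27 and 31 had 274 and 770 CPM of cholangiocyte markers and 2063 and 2910 CPM of macrophage markers. Pancreas acinar markers, 22 of which were on the panel, summed to 7753 CPM in mouse 17, 4649 CPM in mouse 19 and 35264 CPM in mouse 36, against at most 689 CPM in the other S1 libraries. Results that rest on these libraries are therefore given with and without them, an alternative chosen after the data were seen, and the part of these libraries' composition in the results was not tested.

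**Figure D1:**
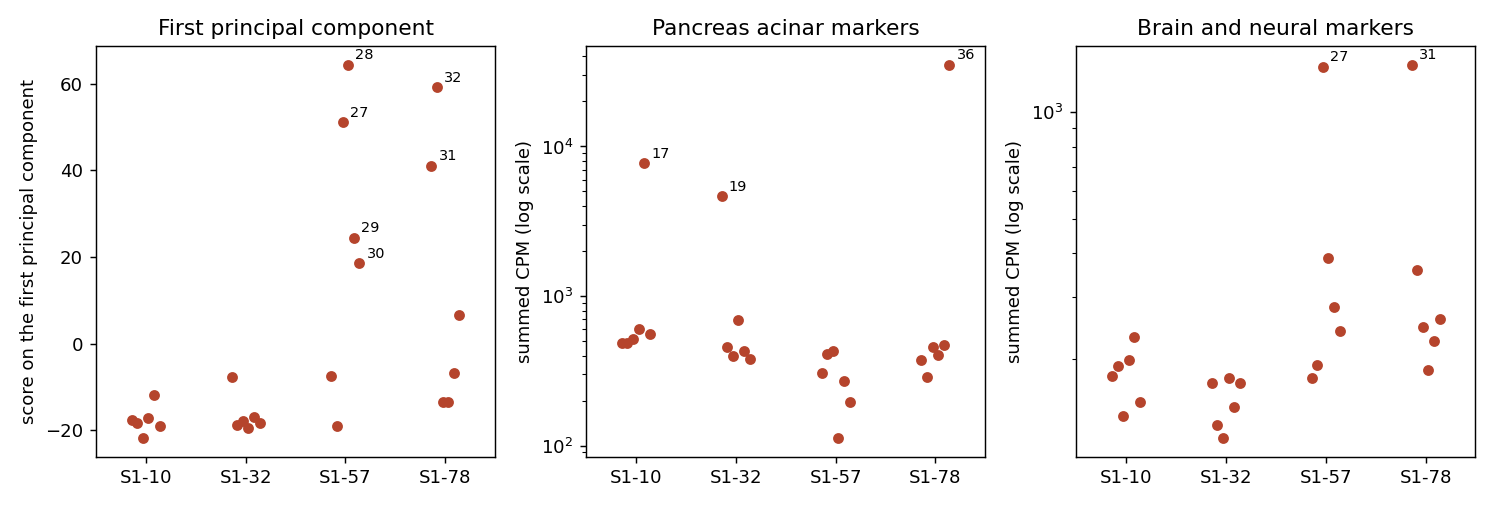
Score of each of the 24 S1 libraries on the first principal component of log2 CPM (left), and the summed CPM of pancreas acinar markers (middle) and of brain and neural markers (right), both on a log scale, by group. Points are single mice, and numbers name the mice that stand apart.

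Along the weeks on water, most genes that changed rose. The linear trend over the 4 groups, given as the log2 change across the 68 weeks, was called for 251 of 2205 genes (11.4%), where a call needs a fold beyond 1.5 and an adjusted p up to 0.05. Of these, 225 rose (10.2%) and 26 fell (1.18%). Falls made up more of the calls with the compared groups alone or with log2 total count as a covariate, as given under the processing. The genes that rose had a median of mean levels of 24.1 CPM in S1-10 and 82 CPM in S1-78, and those that fell went from 430 CPM to 203 CPM, against 50.9 and 53.8 CPM over all genes. These levels describe genes chosen by the same trend. A test of any difference among the 4 groups called 181 genes (8.21%).

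The number of trend genes was lower without the 6 libraries that stood apart. Without these 6, which leaves mice 25 and 26 in S1-57 and mice 33 to 36 in S1-78, the trend was called for 13 genes. Of these, 12 were shared with the 251, and any difference among the groups was called for 9. The 6 were picked by their place in these same data and the groups became smaller, so the lower count does not show what these libraries alone contributed. In the later mice kept from S1-57 and S1-78, rising trend genes had a median log2 ratio to S1-10 of 0.10 to 0.99. In the 6 it was 1.28 to 2.16. Leaving out mouse 31 alone gave 119 trend genes and mouse 32 alone gave 109, and the test of any difference gave 120 without mouse 27 and 107 without mouse 28. The median log2 trend of all genes was 0.08 with TMM factors, 0.13 under RLE and 0.18 under upper-quartile normalization.

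The genes with the largest slopes differed in how far they moved. The largest rises among genes whose S1-10 and S1-78 libraries did not overlap were those of GRIA3, AV320801, 2900092D14RIK, DEPDC1A, MTHFD1L and NUF2, with log2 trends from 6.05 down to 3.59. NUF2 and DEPDC1A act in mitosis, and MTHFD1L in mitochondrial folate metabolism. None of these 6 rises was called without mice 27 to 32, where they were 1.63 to 3.10 (adjusted p from 0.107 to 0.925). AV320801 also lost its call without mouse 32 (3.56, adjusted p = 0.0772) and NUF2 without mouse 31 (2.31, adjusted p = 0.0799). Under the same limit on overlap, the largest falls were those of PEBP1, an inhibitor of RAF kinase, LPGAT1, BMP6, the signal that raises hepcidin, ALDH1A1, GPX4 and CPSF4L, from -2.12 to -1.45. None of the 6 falls was called there either, though they were still -1.40 for LPGAT1, -1.39 for BMP6 and -1.35 to -1.01 for the other 4 (adjusted p from 0.384 to 0.768). With 1 library left out the falls kept about their size, while some calls ended. PEBP1 was -1.94 without mouse 31 (adjusted p = 0.0715) and -1.91 without mouse 32 (0.0703), and LPGAT1 -1.53 without mouse 15 (0.0610) and -1.65 without mouse 32 (0.0624). ALDH1A1 was -1.68 to -1.47 without mouse 13, 14, 15, 16, 31, 32, 35 or 36 (adjusted p up to 0.107), and CPSF4L -1.43 to -1.25 without mouse 15, 16, 18, 31, 32 or 35 (up to 0.0847).

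**Figure D2:**
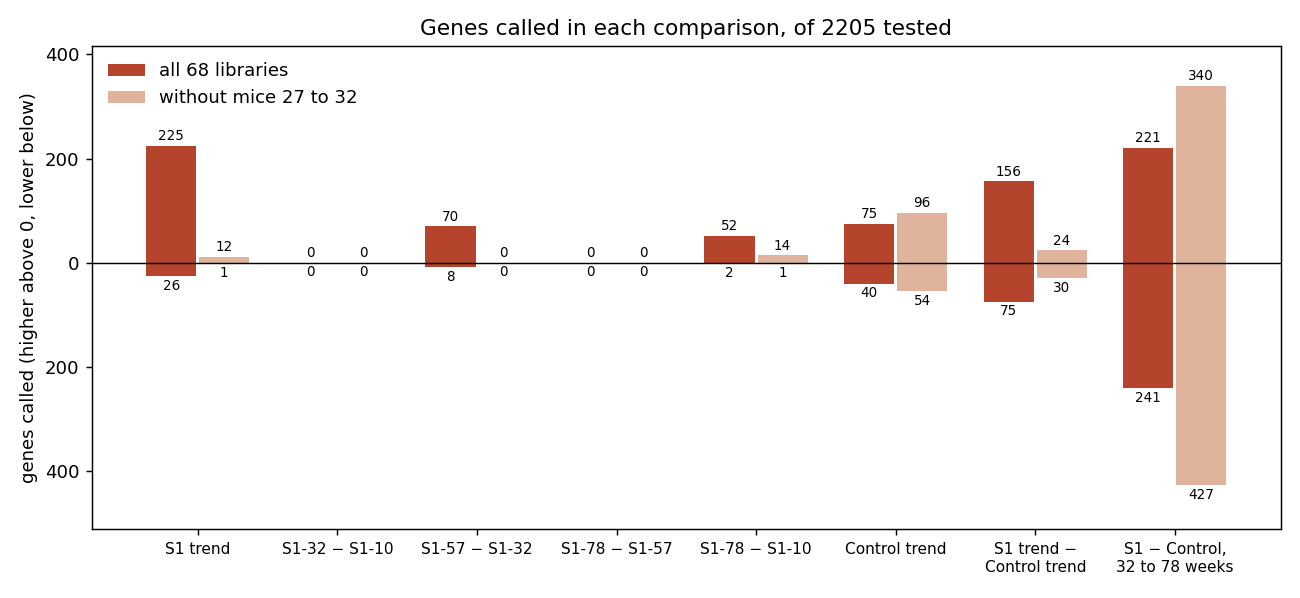
Number of genes called higher (above 0) and lower (below 0) in each comparison, with all libraries (dark) and without mice 27 to 32 (light). The trend among the S1 groups falls from 225 and 26 genes to 12 and 1, while the mean difference from Controls after withdrawal grows.

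Some matrix genes rose with the weeks on water, fibrillar collagens among them. Of 32 tested genes of collagens and matrix, 9 rose, against 10.2% of all genes, and none fell with edgeR (at an unadjusted p under 0.05 the whole trend counted 620 genes). The list's median log2 trend was 0.65, against 0.08 for all genes. COL1A1, the main chain of type I collagen (gene Col1a1, chr11:94936224-94953042), had a median of 42.5 CPM in S1-10 (19.3 to 60.7), 79.8 in S1-32 (44.5 to 128), 88.1 in S1-57 (27.5 to 181) and 241 in S1-78 (63.8 to 970). All 6 libraries of S1-78 lay above every library of S1-10, and mouse 36 was the highest. Its trend was 2.70 ± 0.55 (SE, log2; adjusted p = 0.00134), it was called with each single library left out, and without mice 27 to 32 it was 3.09.

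The other fibrillar chains moved with it but less firmly. COL3A1, the type III collagen chain, had medians of 16.2, 21.8, 19.6 and 76.4 CPM and a trend of 1.71, with 5 of 6 S1-78 libraries above every S1-10 library and the other below them all. In S1-57, 2 lay above and 2 below. COL1A2, the partner chain of type I collagen, had medians of 19.2, 24, 30.6 and 65.8 CPM and a trend of 1.72, with 4 of 6 S1-78 libraries above. In S1-32, 2 lay above and 2 below, and in S1-57 3 above and 1 below. Both trends were called without mice 27 to 32 (2.18 and 2.25), and neither with all 78 libraries (adjusted p = 0.106 and 0.0800). Without mouse 36, whose library also held pancreas and muscle RNA, neither was (1.28, adjusted p = 0.115, and 1.29, adjusted p = 0.142). At nearly unmoved slopes, the COL3A1 call also ended without mouse 13 (1.63, adjusted p = 0.0552) or 15 (1.68, 0.0505). That of COL1A2 ended at slopes of 1.63 to 1.76 in 7 further fits, without mouse 13 (0.0735), 15 (0.0692), 16 (0.0579), 17 (0.0695), 18 (0.0621), 27 (0.0524) or 35 (0.0578).

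Stellate cell and fibroblast markers, 11 of which were tested, summed to medians of 292, 381, 383 and 640 CPM in the 4 groups, with single libraries between 135 and 2014 CPM, the highest in mouse 36. COL1A1 was the most abundant of them from S1-32 on, and none was at 0 in a whole group. The trend called 3 of the 11 higher, against 10.2% of all genes, the same 3 collagens, and their median log2 trend was 1.08. Without mice 17, 19 and 36 it called 1 higher, where 164 of all 2205 genes were. More such cells and more RNA per cell cannot be told apart in these bulk samples, here or for any marker below.

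IGFBP3 and IGFBP6, which carry insulin-like growth factors, rose as well. IGFBP3 (Igfbp3, chr11:7206086-7213923), which binds these factors in plasma, had a median of 174 CPM in S1-10 (127 to 222), 253 in S1-32 (116 to 334), 325 in S1-57 (175 to 410) and 480 in S1-78 (206 to 1135). The groups climbed in order, and 5 of 6 S1-78 libraries lay above all of S1-10, mouse 31 being the highest. The trend was 1.59 ± 0.30 (adjusted p = 0.000631). It was 1.39 and called without mice 27 to 32, and 1.60 but not called with all 78 libraries (adjusted p = 0.0788). IGFBP6, which prefers insulin-like growth factor 2, had medians of 2.65, 10.3, 18.2 and 13.9 CPM, each S1-78 library above each S1-10 library, and a trend of 2.87 ± 0.65 (adjusted p = 0.00319), 3.06 without mice 27 to 32. Both were called with each single library left out. The 2 genes were chosen after their values were seen.

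**Figure D3:**
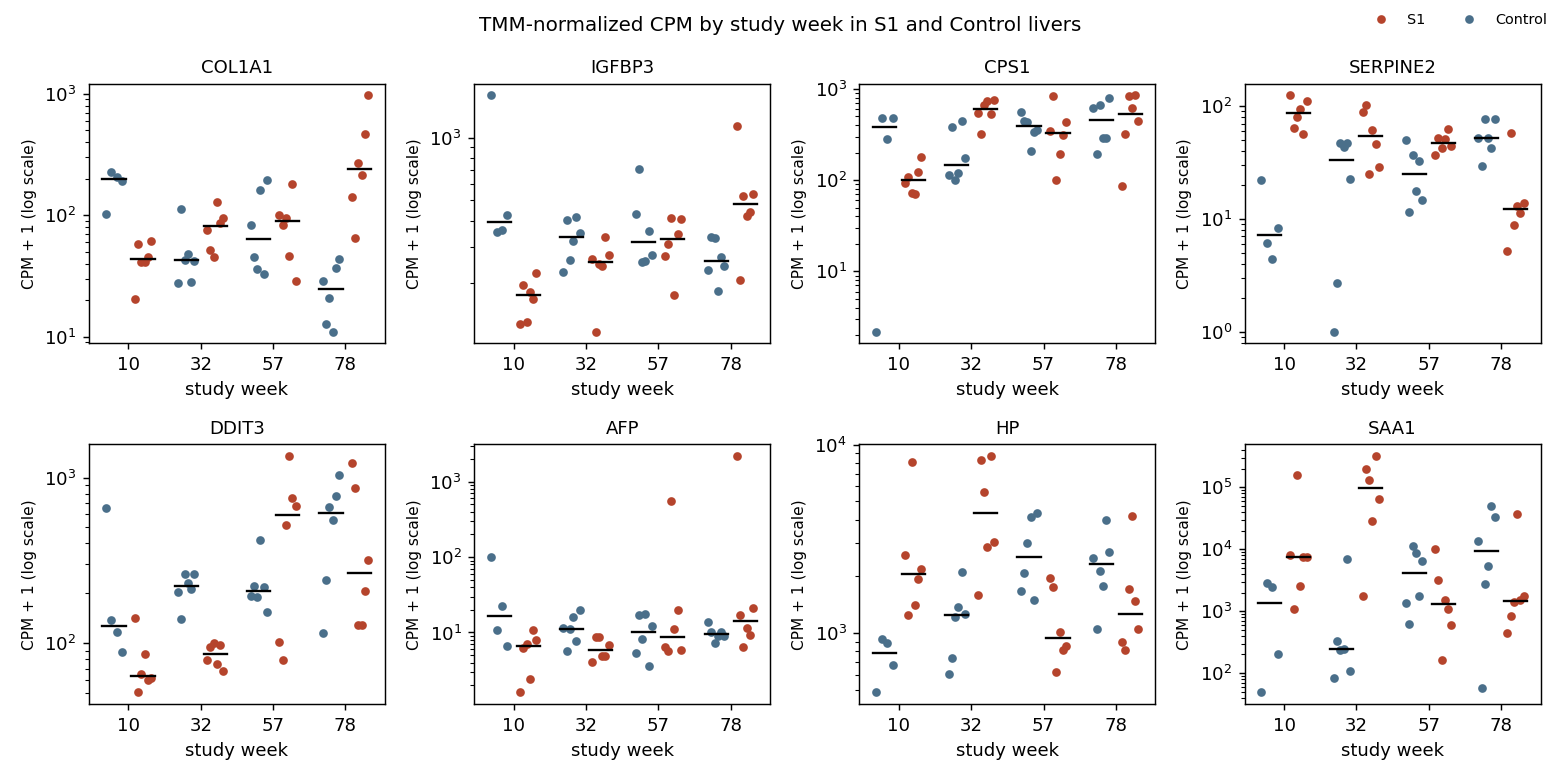
CPM plus 1 on a log scale by study week for 8 genes, in S1 (red) and Control (blue) livers. Points are single mice and bars are medians. COL1A1 and IGFBP3 climb in S1 and fall in Controls, SERPINE2 does the opposite, and AFP is high in 1 library each of S1-57 and S1-78.

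Among hepatocyte markers, 1 of 14 rose and 1 fell, against 10.2% and 1.18% of all genes. CPS1, the enzyme that opens the urea cycle, rose along the trend. Its median was 99.4 CPM in S1-10 (70 to 177), 603 in S1-32 (316 to 747), 329 in S1-57 (99.1 to 827) and 534 in S1-78 (85.2 to 848). Every S1-32 library and 5 of 6 in each later group exceeded all of S1-10, but the step from S1-10 to S1-32 was not called (2.47, adjusted p = 0.154), nor was the difference from the Control trend (1.03, adjusted p = 0.397). The trend was 1.82 ± 0.53 (adjusted p = 0.0189). It was 2.38 and called without mice 27 to 32 (adjusted p = 0.0211), and 1.83 but not called with all 78 libraries (adjusted p = 0.0788). In Control-10, CPS1 was at 380 CPM in the median but near 1 CPM in mouse 68. APOE, the apolipoprotein that clears lipoprotein remnants, had medians of 42256, 39003, 25044 and 23336 CPM and a trend of -0.83 (adjusted p = 0.0198), -0.69 and not called without mice 27 to 32 (adjusted p = 0.479). The summed markers of hepatocytes had medians of 150247, 122970, 103804 and 109496 CPM.

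SERPINE2, a secreted inhibitor of thrombin and plasminogen activators, fell. Its median was 86.7 CPM in S1-10 (56.2 to 124), 53.2 in S1-32 (24 to 101), 46.7 in S1-57 (35.9 to 62.1) and 11.2 in S1-78 (4.25 to 56.4). In S1-78, 5 of 6 libraries were under every S1-10 library, and mouse 32 stood above the other 5. The trend was -2.17 ± 0.58 (adjusted p = 0.0108), called with each single library left out, and -2.79 without mice 27 to 32. With all 78 libraries it was not called (adjusted p = 0.0694).

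Some stress genes were high in part of the later livers. Of 31 tested genes of the unfolded protein response and chaperones 4 rose along the trend, a share near the 10.2% of all genes, and the list's median log2 trend was -0.11. DDIT3, which encodes the stress transcription factor CHOP, had a median of 61.8 CPM in S1-10 (49.2 to 140), 85.3 in S1-32 (66.9 to 98.9), 594 in S1-57 (77.8 to 1345) and 262 in S1-78 (127 to 1215). S1-10 and S1-32 overlapped, while 4 of 6 libraries in each later group exceeded both. Its trend was 3.23 ± 0.51 (adjusted p = 6.32e-05) and was called with each single library left out, but was 1.2 and not called without mice 27 to 32 (adjusted p = 0.374). TRIB3, an inhibitory partner of AKT induced by the same stress pathway, reached 897 CPM in mouse 27 and 1040 CPM in mouse 31 against medians of 32.2, 38.4, 57.8 and 71.8 CPM. Its trend of 3.04 was 1.56 and not called without mouse 31 (adjusted p = 0.0994). HSPD1, a mitochondrial chaperone, had medians of 15.3, 14.9, 44.2 and 33.1 CPM and a trend of 1.70, which was 1.37 without mouse 32 (adjusted p = 0.0597).

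Of 22 targets of p53, 9 were called higher along the trend, against 10.2% of all genes, and none lower, with a list median of 0.73. MDM2, the ligase that degrades p53, had medians of 73.4, 71.7, 240 and 115 CPM, with 5 of 6 S1-57 libraries and 4 of 6 S1-78 libraries above all of S1-10. Its trend was 1.90 ± 0.47 (adjusted p = 0.00645), held with each single library left out. CDKN1A, the cell cycle inhibitor p21, had medians of 28.6, 23.9, 88.4 and 157 CPM and a trend of 2.06, which was 1.80 without mouse 31 (adjusted p = 0.0689). Of 19 immediate-early genes, transcribed within minutes of a stimulus, 4 rose, against the same 10.2%. None of the p53 targets, immediate-early genes or stress genes was called by edgeR without mice 27 to 32, where the whole trend counted 13 genes. RBM12B1, an RNA-binding protein chosen after its values were seen, had medians of 317, 330, 868 and 589 CPM. All 6 S1-78 libraries exceeded S1-10, the trend was 1.49 ± 0.24 (adjusted p = 7.42e-05) and 0.91 without mice 27 to 32 (adjusted p = 0.0847).

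Among cell cycle genes 17 of 52 rose, against 10.2% of all genes, and none fell, with a list median of 1.5. TK1, which makes thymidine monophosphate for DNA synthesis, had a median of 97.9 CPM in S1-10 (28.5 to 112), 108 in S1-32 (34.9 to 135), 206 in S1-57 (120 to 444) and 265 in S1-78 (76.7 to 1413). All 6 S1-57 and 4 of 6 S1-78 libraries exceeded S1-10, and mouse 32 was far above the rest. Its trend of 2.47 (adjusted p = 0.00848) was 1.61 without mouse 32 (adjusted p = 0.107). UBE2C, which tags mitotic cyclins for destruction, had medians of 0.801, 3.13, 7.95 and 10.0 CPM and a trend of 3.96, called with each single library left out. None of the 52 was called without mice 27 to 32, and the list median was 0.69.

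AFP and GRIA3 were very high in single livers. Of 13 genes of fetal liver and liver tumours 2 rose, a share near the 10.2% of all genes, with a list median of 1.19. AFP, the fetal counterpart of albumin, had medians of 5.69, 4.93, 7.79 and 13.2 CPM, but 551 CPM in mouse 27 of S1-57 and 2177 CPM in mouse 31 of S1-78. Every other S1 library lay at or under 20.2 CPM. Its trend of 6.81 was 2.46 and not called without mouse 31 (adjusted p = 0.0858). Brain and neural markers, of which 17 were tested and 5 rose, against 10.2% of all genes (list median 1.55), summed to 1344 CPM in mouse 27 and 1364 CPM in mouse 31, against group medians of 185, 159, 261 and 253 CPM. GRIA3, a glutamate receptor subunit, was at 782 CPM in mouse 27 and 741 CPM in mouse 31, with medians of 4.04, 7.52, 10.8 and 49.9 CPM. It was the most abundant neural marker in S1-57 and S1-78 by group mean (138 and 166 CPM), which includes these libraries. Its trend of 6.05 was called with each single library left out, and was 3.10 without mice 27 to 32 (adjusted p = 0.107). NEFL was at 0 in S1-10 and S1-32. Mice 27 and 31 also had counts in the most genes of their groups, 2747 and 2536 of 2755, against group medians of 2344.5 and 2391. Mouse 27 was the lowest of S1-57 in summed hepatocyte markers (61393 CPM) and the highest in markers of neutrophils and monocytes (323 CPM), B and plasma cells (174 CPM) and T and NK cells (464 CPM). The part of neural RNA, and of whatever else set these 2 libraries apart, in these values was not tested.

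CTNND1, the catenin p120 that stabilizes cadherins, had medians of 1191, 1229, 3082 and 1159 CPM. In S1-57, 5 of 6 libraries exceeded all of S1-10, and in S1-78 only mice 31 and 32 did. Its trend of 1.45 was 1.06 without mouse 32 (adjusted p = 0.0622) and 0.03 without mice 27 to 32. GPX4, which reduces lipid peroxides, fell from medians of 1637 and 1703 CPM to 576 and 676 CPM, and every S1-78 library lay under all of S1-10. The trend of -1.53 was not called without mouse 31 (-1.51, adjusted p = 0.0511) or 32 (-1.37, adjusted p = 0.0700).

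Single steps between neighbouring groups were called at 1 of the 3 intervals. From S1-10 to S1-32, the first 22 weeks off DCA, edgeR called 0 genes (0%; 18 at an unadjusted p under 0.05, and 1 with DESeq2). From S1-32 to S1-57 it called 78 genes (3.54%), 70 higher (3.17%) and 8 lower (0.363%), and from S1-57 to S1-78 again 0 (0%; 101 at an unadjusted p under 0.05, and 3 with DESeq2). The last step was 8 genes without mouse 32 and 1 gene each without mouse 31, 33, 34 or 35. Across the whole span, S1-78 against S1-10, 54 genes were called (2.45%), 52 higher (2.36%) and 2 lower (0.0907%), and all 54 were trend genes. DESeq2 called 250 genes in the middle step. Under the limit on overlap, the largest rises in this step were those of LSM6, KCNK6, DFFB, MFSD10, HSD17B10 and PRKG1, from 2.91 to 1.24. Each lost its call in 5 to 10 of the 12 fits without 1 library, at rises of 1.02 to 3.21.

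The number of genes called in the middle step depended on single livers. The count of 78 was 27, 8, 4, 9, 5 and 25 without mice 19 to 24 of S1-32 in turn, and 143, 240, 34, 3, 33 and 16 without mice 25 to 30 of S1-57. With mice 27 to 32 left out, edgeR called 0 (13 at an unadjusted p under 0.05). For the span from S1-10 to S1-78, the 54 genes fell to between 14 and 18 without mouse 13, 14, 15, 16 or 18, to 14 without mouse 31 and to 32 without mouse 32. In the middle step, DDIT3 (2.77, adjusted p = 0.00472) and RBM12B1 (1.27, adjusted p = 0.00472) were called with each single library left out. Neither was called without mice 27 to 32 (0.07 and 0.50, adjusted p = 1.00 for both) or with log2 total count as a covariate, nor RBM12B1 with all 78 libraries.

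Several acute phase proteins fell between S1-32 and S1-57. Of 19 tested, 5 were called lower, against 0.363% of all genes, and none higher, with a list median of -0.66 against 0.05 for all genes. HP, haptoglobin, which binds free haemoglobin, had a median of 2063 CPM in S1-10 (1247 to 8085), 4313 in S1-32 (1590 to 8679), 938 in S1-57 (623 to 1962) and 1264 in S1-78 (814 to 4168). Between S1-32 and S1-57 it fell by 2.09 ± 0.42 (log2; adjusted p = 0.00472), and this was called with each single library left out. Without mice 27 to 32 it was -1.43 and not called (adjusted p = 1.00), nor was it with all 78 libraries or log2 total count as a covariate. Mouse 15 of S1-10 and mouse 34 of S1-78 stood above the rest of their groups.

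Serum amyloid A, the protein of high-density lipoprotein that climbs most in inflammation, showed the same shape. SAA1 had a median of 7521 CPM in S1-10 (1068 to 159953), 97290 in S1-32 (1729 to 319258), 1303 in S1-57 (160 to 10132) and 1460 in S1-78 (440 to 36788). The groups overlapped and each spanned a wide range, with mice 15, 23, 25 and 34 highest in turn. SAA2 and LCN2, an iron-trapping lipocalin, ran alongside, with medians of 2556, 67110, 593 and 282 CPM and of 195, 3189, 76.1 and 43.1 CPM. The middle step was -5.48, -6.54 and -5.51 for the 3 genes, each called, and the call was lost in 8, 8 and 6 of the 12 fits missing 1 library of these groups, at falls of similar size (-4.94 to -5.69, -5.92 to -6.76 and -4.85 to -5.44). In each case the highest adjusted p was 0.123, without mouse 28, mice 20, 21, 23, 29 and 30 also ended all 3 calls, and mice 22 and 27 those of SAA1 and SAA2. The trends of SAA1 (-3.65) and SAA2 (-4.44) were lost in 11 and 6 of the 24 fits without 1 library, most of all without mouse 15 (-1.38, adjusted p = 0.457, and -1.51, adjusted p = 0.473). For SAA1 these were mice 15, 20, 23, 27, 28, 29, 31, 32, 33, 35 and 36, for SAA2 mice 15, 31, 32, 33, 35 and 36. Apart from mouse 15 the slopes without them were -3.42 to -3.59 and -4.20 to -4.24, and without mouse 34 the trends were -5.90 and -7.48.

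The promoters of both genes are shown because the genes moved together and are close copies, so that their probes may share reads. They are from RefSeq (GRCm38.p6), 250 bases before to 50 after the start, at chr7:46742931-46743230 on the minus strand for Saa1 and chr7:46751583-46751882 on the plus strand for Saa2. Capitals mark the only match in each to TTGCNNAA, a core recognized by C/EBP factors, searched on both strands, with its first base at -182 and -183. Of 32851 promoters, 3547 (10.8%) hold this motif, and the match describes letters only. The 2 sequences share 287 of 301 aligned positions.
Saa1: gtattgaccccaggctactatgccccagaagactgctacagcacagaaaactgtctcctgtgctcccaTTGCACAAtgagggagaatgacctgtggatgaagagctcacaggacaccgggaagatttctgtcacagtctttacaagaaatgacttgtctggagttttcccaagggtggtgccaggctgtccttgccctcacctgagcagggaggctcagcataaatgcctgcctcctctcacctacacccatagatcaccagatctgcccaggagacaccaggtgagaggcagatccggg
Saa2: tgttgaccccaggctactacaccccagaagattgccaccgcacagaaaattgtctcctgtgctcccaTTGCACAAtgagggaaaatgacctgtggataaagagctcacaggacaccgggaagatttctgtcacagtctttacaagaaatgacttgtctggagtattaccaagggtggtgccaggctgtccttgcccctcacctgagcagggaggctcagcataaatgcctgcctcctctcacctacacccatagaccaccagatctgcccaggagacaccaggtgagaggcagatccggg

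Lists of metabolism genes gave these counts along the trend, which called 10.2% of all genes higher and 1.18% lower. Of 24 tested genes of the tricarboxylic acid cycle and respiratory chain 2 rose and none fell (list median -0.01), and of 19 genes of pyruvate metabolism and glycolysis 1 rose (0.20). Among 27 targets of PPARA, the nuclear receptor for fatty acids, and fatty acid oxidation genes, 1 rose and 2 fell (-0.66). Of 16 genes of cholesterol synthesis none was called by edgeR (-0.51), nor was any of 10 macrophage markers (-0.13) or 18 leukocyte genes (0.31), where the trend over all genes counted 251 calls, 620 at an unadjusted p under 0.05 and 380 with DESeq2. Of 17 complement genes 1 rose (-0.46).

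Calls of muscle and pancreas genes rested on 1 to 3 livers, though LMOD3 kept much of its rise without them. Of 8 tested skeletal muscle markers 4 rose along the trend, against 10.2% of all genes, with a list median of 2.89. CKM, the creatine kinase of muscle, was at 2351 CPM in mouse 36 of S1-78 and at or under 19.2 CPM in every other S1 library. Its trend of 7.93 was 1.57 without mouse 36 (adjusted p = 0.463). For LMOD3, the trend of 4.03 was 2.96 and not called without mouse 36 (adjusted p = 0.0844). In this gene 3 of 6 S1-57 and 4 of 6 S1-78 libraries lay above all of S1-10. The most abundant marker, CAR3, is also made by liver, and 5 markers (MYH1, MYH2, MYL1, MYL2 and TNNC2) were at 0 in all of S1-10. Without mice 17, 19 and 36 no muscle marker was called by edgeR, where 178 genes were called in the trend. The part of muscle RNA in the result was not tested. Pancreas acinar markers gave no call in the trend with edgeR (0 of 11) and are taken up with the Control comparison.

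**Figure D4:**
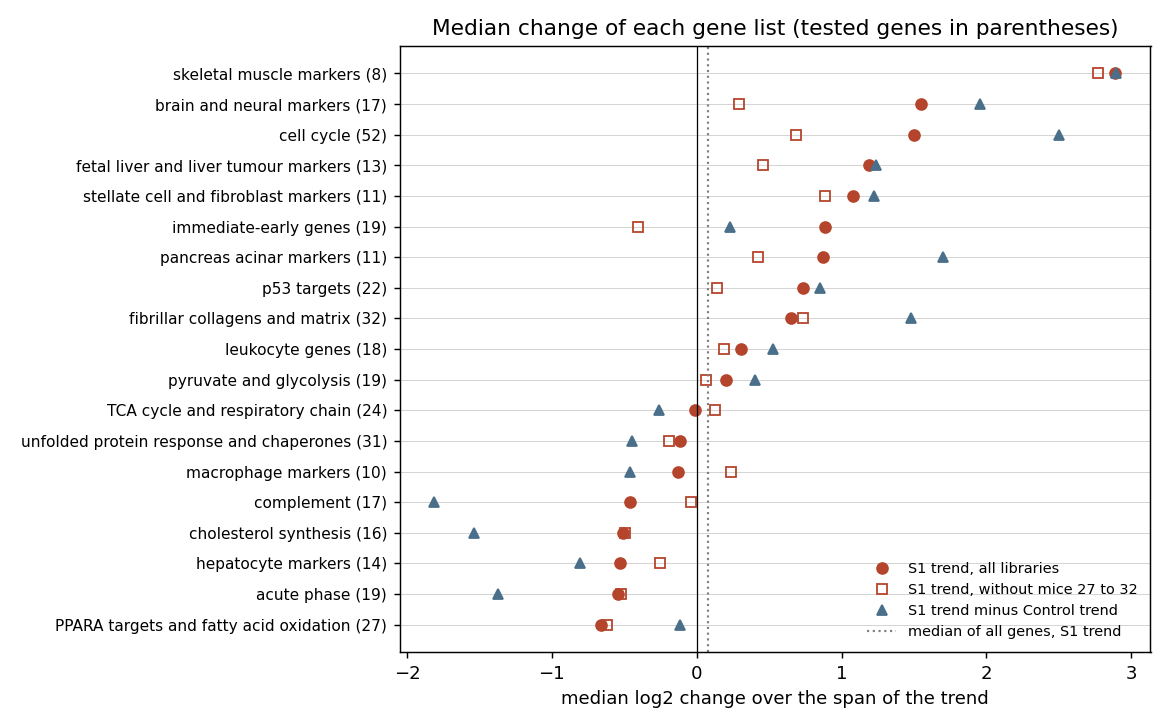
Median log2 change of each gene list along the trend in S1 with all libraries (filled circles) and without mice 27 to 32 (open squares), and the difference of the S1 and Control trends (triangles). The dotted line is the median of all genes in the S1 trend, 0.08, and the number of tested genes stands beside each list.

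Control livers also changed with age, and partly in the opposite direction. The same linear contrast over Control-10 to Control-78 called 115 genes (5.22%), 75 higher (3.40%) and 40 lower (1.81%). Leaving out mouse 72 of Control-10 gave 75. The split was 57 and 66 under RLE normalization and 48 and 78 under upper-quartile normalization, as the median of all genes moved from -0.05 to -0.22 and -0.27. COL1A1 had medians of 197, 41.6, 62.9 and 23.7 CPM in the 4 Control groups and a trend of -2.24 (adjusted p = 0.0123), not called with all 78 libraries (-1.96, adjusted p = 0.100). CYP3A11, a drug-metabolizing cytochrome P450 chosen after its values were seen, had medians of 2543, 423, 503 and 370 CPM and a trend of -2.57 (adjusted p = 0.000971), not called with all 78 libraries (-2.15, adjusted p = 0.0831), against 648, 469, 793 and 670 CPM in S1. CYP4A14, a fatty acid hydroxylase induced through PPARA, went from 3811 CPM in Control-10 to 9.77, 7.54 and 0.932 CPM, where S1 had 28.6, 1.37, 11.6 and 4.73 CPM. All 6 S1-10 libraries lay under all 4 of Control-10 for each of these 3 genes.

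The exposed and unexposed livers took different courses. The S1 trend minus the Control trend was called for 231 genes (10.5%), 156 higher (7.07%) and 75 lower (3.40%), and a test of any change in the difference over the 4 ages called 189 (8.57%). The median difference over all genes was 0.08 with TMM, 0.29 with RLE and 0.38 with upper-quartile factors. Mouse 68 of Control-10 stood apart, with summed hepatocyte markers of 54534 CPM against 134400 to 159539 CPM in the other 3 and a squared Spearman correlation with the mean of the 68 libraries of 0.657, against 0.916 to 0.921. Without it the 231 fell to 62, and the 189 to 110. Without mouse 75 of Control-32, whose correlation was the lowest of the Controls (0.574), the 189 fell to 125. Leaving out Control mice 68, 75, 82 and 84 gave 73 and 42. Without mice 27 to 32, 54 genes were called, 45 of them among the 231.

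COL1A1, COL1A2, COL3A1, IGFBP3 and IGFBP6 rose in S1 relative to Controls. COL1A1 differed by 4.94 ± 0.79 (adjusted p = 5.33e-05), since S1-10 lay wholly under Control-10 and S1-78 wholly above Control-78, whose highest library was at 42.5 CPM. COL1A2 differed by 3.85 and COL3A1 by 3.34. IGFBP3 differed by 2.74 ± 0.44 (adjusted p = 5.33e-05), with Control medians of 393, 333, 314 and 255 CPM, and IGFBP6 by 4.92 ± 0.92 (adjusted p = 0.000465). SERPINE2, with Control medians of 6.25, 32.1, 24 and 51.6 CPM, differed by -4.42 ± 0.90 (adjusted p = 0.00109). These 6 differences were called with each single library left out and without mice 27 to 32. Of the 32 matrix genes 6 were higher and 2 lower, against 7.07% and 3.40% of all genes, with a list median of 1.48.

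Part of the acute phase, complement and cholesterol synthesis genes fell in S1 relative to Controls. Of 19 acute phase genes 7 were lower and none higher (median -1.37), of 17 complement genes 7 lower (-1.81), and of 16 genes of cholesterol synthesis 4 lower (-1.54), against 3.40% of all genes. HP differed by -3.22 ± 0.59 (adjusted p = 0.000465), called without mice 27 to 32 as well (-2.71). At 10 weeks all 6 S1 libraries exceeded the Controls in HP, and at 57 weeks 4 of 6 lay under them. SAA2 differed by -9.31 and LCN2 by -8.55, both called with each single library left out but not with log2 total count as a covariate (adjusted p = 0.0621 and 0.155). SAA1 differed by -7.46, which was -7.11 and not called without mouse 68 (adjusted p = 0.0517). Their sizes moved most without mouse 15 of S1-10 (-5.20 for SAA1, -6.39 for SAA2 and -5.84 for LCN2) and, for SAA1 and SAA2, without mouse 34 of S1-78 (-9.72 and -12.35). Without mice 27 to 32, 3 of the 19 acute phase genes and 2 of the 17 complement genes were called.

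By size, the largest rises of this difference were those of CKM, AFP, TNNI2, GXYLT2, DRD2 and KIF5C, from 9.53 to 7.58, and the largest falls those of SAA2, LCN2, ENPP6, SAA1, CES2H and SERPINE2, from -9.31 to -4.42. Single livers ended calls in the first group. CKM, TNNI2, GXYLT2, DRD2 and KIF5C lost their calls without mouse 68 (adjusted p = 0.988, 0.189, 0.0848, 1.00 and 0.439). Their sizes there were 4.14, 6.39, 5.12, 1.51 and 4.24. CKM (3.22) and TNNI2 (2.20) also lost their calls without mouse 36, DRD2 (6.93) without mouse 32 and KIF5C (2.04) without mouse 31. For GXYLT2, 5 of 6 libraries in S1-57 and in S1-78 lay above all of S1-10. ENPP6, a choline phosphodiesterase, differed by -8.31 and was called with each single library left out and without mice 27 to 32. With all 78 libraries it was -2.73 and not called (adjusted p = 0.194). Its medians were 9.39, 11.8, 11.7 and 2.80 CPM in S1 and 0, 6.63, 13.7 and 7.21 CPM in Controls. CES2H was -5.45 and not called without mouse 68 (adjusted p = 0.0517), and -10.01 without mouse 69.

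Cell cycle genes showed the reverse: 18 of 52 were higher, against 7.07% of all genes, and none lower, with a median of 2.50. For UBE2C, the difference of 4.34 was 0.74 and not called without mouse 68 of Control-10 (adjusted p = 0.824). NUF2, NEIL3 and CCNA2 also lost their calls without this mouse (adjusted p = 0.0548, 0.11 and 0.112). Their differences of 5.570, 5.415 and 2.626 were 3.909, 3.624 and 1.958 there. Without mice 27 to 32 none of the 52 was called by edgeR, where 54 genes were called in all. DDIT3 differed by 2.17 (adjusted p = 0.0322), which ended without mouse 14 (2.08, adjusted p = 0.0544), 18 (2.12, 0.0508), 31 (1.70, 0.114), 32 (2.05, 0.0617) or 68 (1.16, 0.391). It lay under all Controls in 5 of 6 S1-10 and all 6 S1-32 libraries. At 57 weeks 4 of 6 lay above and 2 under, and at 78 weeks 1 of 6 lay above. TRIB3 and HSPD1 lay under all Controls in all 6 S1-32 libraries. In the mean of the differences at 32, 57 and 78 weeks, HSPD1 was lower (-1.06), called with each single library left out. AFP differed by 8.56, or 4.25 without mouse 31, and TRIB3 by 4.90, and each was called with any 1 library left out. AFP was not called without mice 27 to 32 (2.74, adjusted p = 0.175), while TRIB3 was (2.68).

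After withdrawal the S1 livers differed from Controls in many genes, also without the 6 livers. The mean of the S1 minus Control differences at 32, 57 and 78 weeks, all taken off DCA, was called for 462 genes (21.0%), 221 higher (10.0%) and 241 lower (10.9%). It was called without mice 27 to 32 for 767 genes, 409 of them among the 462.

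DPM1, CYCS and NDUFA1 were lower than in Controls. DPM1, which makes the mannose donor for glycosylation, had medians of 381, 363 and 412 CPM in S1-32, S1-57 and S1-78 (246 to 629 over the 18 libraries) against 1344, 1075 and 996 CPM in Controls (351 to 3010). The ranges overlapped at each age, with 3, 2 and 5 of 6 S1 libraries under all Controls. The mean difference was -1.69 ± 0.22 (adjusted p = 1.88e-07). At 10 weeks, on DCA, all 6 libraries lay above Control-10 instead (median 367 against 280 CPM). CYCS, cytochrome c, had medians of 91.2, 115 and 159 CPM against 528, 278 and 212 CPM, with 4, 5 and 1 of 6 libraries under all Controls, and differed by -1.28 ± 0.18 (adjusted p = 6.93e-07). NDUFA1, a subunit of respiratory complex I, had medians of 1356, 2255 and 2010 CPM against 8547, 4654 and 3588 CPM and differed by -1.36 ± 0.25 (adjusted p = 9.4e-05). For this gene 5, 1 and 2 of 6 libraries lay under all Controls, and mouse 32 of S1-78 was at 6373 CPM. Of the 24 genes of the tricarboxylic acid cycle and respiratory chain, 10 were lower and 1 higher, against 10.9% and 10.0% of all genes, with a median of -0.05 against 0.07 for all genes. Without mice 27 to 32, 9 were lower and 6 higher, where 427 and 340 of all 2205 genes were.

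FMO5, a hepatic monooxygenase, had medians of 792, 979 and 837 CPM against 1381, 2406 and 2222 CPM. All 6 S1-57 libraries and 4 of 6 at each other age lay under all Controls, and the difference was -1.14 ± 0.16 (adjusted p = 6.84e-07). TYROBP, an adaptor of receptors on myeloid cells, had medians of 337, 263 and 428 CPM against 1948, 1531 and 1071 CPM, and differed by -2.37 ± 0.37 (adjusted p = 5.45e-06). The groups overlapped at 32 and 78 weeks, and at 57 weeks 4 of 6 libraries lay under all Controls. Of 10 macrophage markers 2 were higher and 1 lower (median -0.095), and of 18 leukocyte genes 1 was higher and 1 lower (0.22), where 10.0% of all genes were higher and 10.9% lower. Macrophage markers summed to medians of 2306, 1505 and 1563 CPM in S1 and 1197, 2291 and 1709 CPM in Controls, with 8688 CPM in mouse 82 and 7735 CPM in mouse 84 of Control-57. MPEG1 was the most abundant of them in these S1 groups and LCP1 of the leukocyte genes, none was at 0 in a whole group, and their part in the TYROBP difference was not tested.

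The largest falls of the mean difference, beside TYROBP, were those of CYP4A14, DBP, EGR2, PSMB9 and SDHB, from -3.18 to -2.49. DBP, a clock-controlled transcription factor, had medians of 41.6, 30.1 and 27.1 CPM in S1 against 209, 627 and 142 CPM in Controls, and SDHB is a subunit of succinate dehydrogenase. EGR2, PSMB9 and SDHB were low in both: their S1 medians were at most 3.91 CPM and their Control medians at most 12.6 CPM. For CYP4A14, no S1 library lay under all Controls at 32, 57 or 78 weeks. Its S1 medians, given above, exceeded the Control medians at 57 and 78 weeks. CYP4A14 was not called without mouse 86 of Control-78 (-2.19, adjusted p = 0.11), and EGR2 was -1.83 without mouse 90 (adjusted p = 0.0406). The other 3 were called with each single library left out, and DBP, EGR2, PSMB9 and SDHB also without mice 27 to 32.

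Higher genes included SMC3, a ring protein of cohesin, which holds sister chromatids together. It had medians of 52.2, 58.6 and 39.3 CPM against 16.3, 16.6 and 16.9 CPM, with 5, 6 and 5 of 6 libraries above all Controls, and differed by 1.35 ± 0.20 (adjusted p = 2.25e-06). SDPR (Cavin2), a coat protein of caveolae, had medians of 94.4, 101 and 97.4 CPM against 50.6, 45.6 and 40.2 CPM, with 4, 4 and 6 libraries above all Controls. It differed by 1.13 ± 0.18 (adjusted p = 5.89e-06). COL1A1 was higher by 1.49 ± 0.33 (adjusted p = 0.000662), an average over 32 and 57 weeks, where the groups overlapped, and 78 weeks, where they did not. The differences of DPM1, CYCS, NDUFA1, FMO5, TYROBP, SMC3, SDPR and COL1A1 were called with each single library left out and without mice 27 to 32. DPM1, CYCS, FMO5 and SMC3 were chosen after their values were seen.

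**Figure D5:**
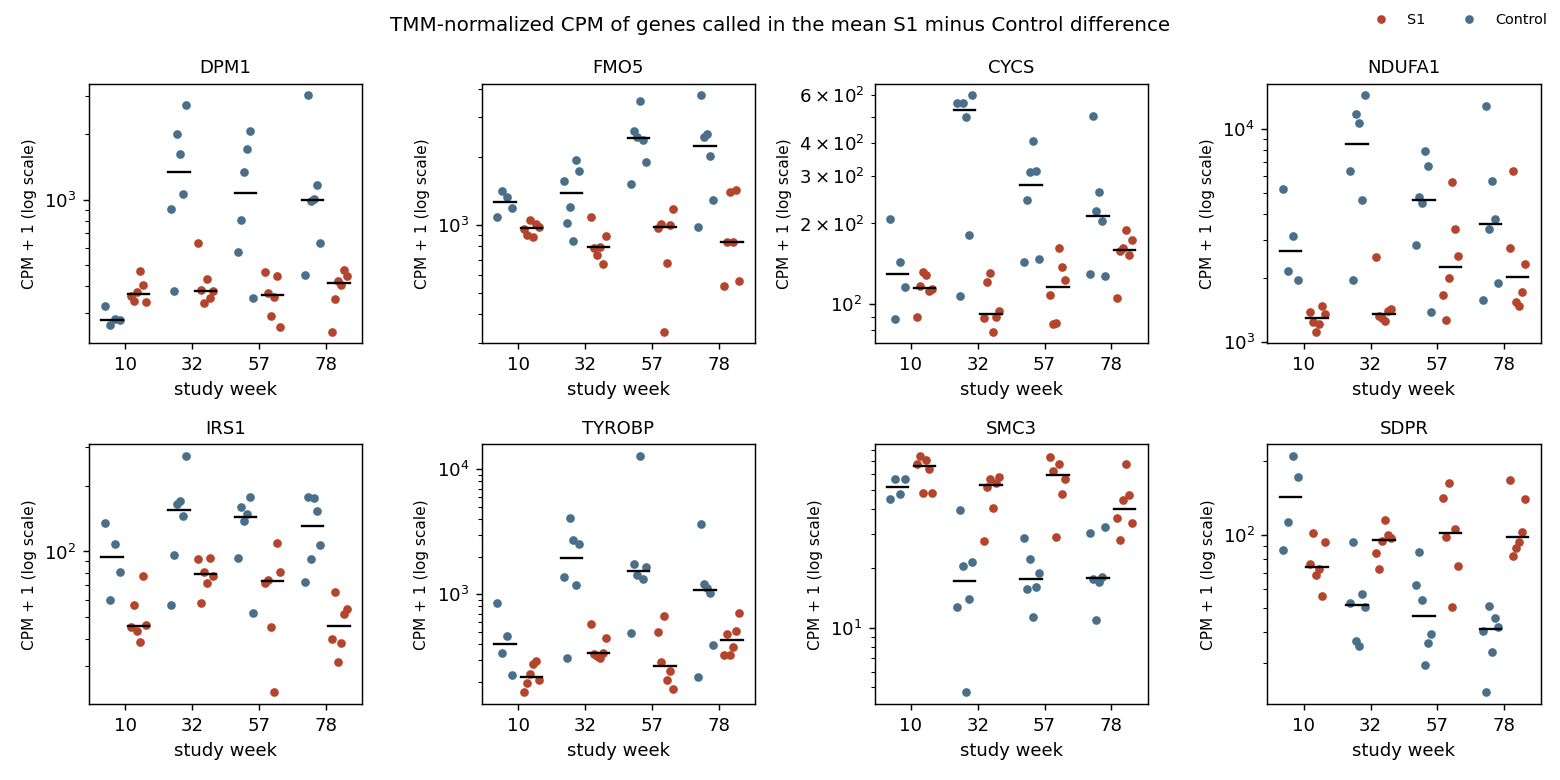
CPM plus 1 on a log scale by study week for 8 genes called in the mean difference from Controls after withdrawal, in S1 (red) and Control (blue) livers. Points are single mice and bars are medians. S1 medians lie below the Controls for DPM1, FMO5, CYCS, NDUFA1, IRS1 and TYROBP at 32, 57 and 78 weeks and above them for SMC3 and SDPR.

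The largest rises of this mean difference were pancreas enzymes, and they rested on mice 19 and 36, since mouse 17 of S1-10 does not enter it. The largest of them, CPA1 (4.96), also lost its call without mouse 27 (3.69, adjusted p = 0.308). Of 11 tested pancreas markers 8 were higher, against 10.0% of all genes, with a median of 3.12. CELA2A, a pancreatic elastase, was at 658 CPM in mouse 17, 345 CPM in mouse 19 and 2882 CPM in mouse 36, and its group medians were 2.84, 3.85, 1.74 and 1.55 CPM. The difference of 3.67 was 1.28 and not called without mouse 36 (adjusted p = 0.261), 2.36 without mouse 19 (adjusted p = 0.048), and -0.05 without mice 17, 19 and 36. With these 3 libraries left out no pancreas marker was called by edgeR, where the whole comparison counted 419 genes. AMY1, also made by liver, was the most abundant marker in S1-10, S1-32 and S1-57 and CTRB1 in S1-78, and the endocrine marker INS2 was at 0 in all of S1-10. The part of pancreas RNA in other results was not tested.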

How the data were processed

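The deposited count table holds the authors' raw counts per gene, 2755 genes in 78 libraries, from reads matched to the probes. The normalized table holds a signal the authors made from 68 libraries, each count plus 1 divided by a factor per library, and the filtered table keeps 2205 of its genes. Its genes and libraries were used here with the raw counts, in R 4.3.3 and edgeR 4.0.16: TMM factors, 1 quasi-likelihood fit over all 13 groups, 2-sided tests and Benjamini-Hochberg adjustment over 2205 genes within each of 10 contrasts. A call needs a fold beyond 1.5 and an adjusted p up to 0.05. DESeq2 1.42.0 served as an alternative. Trends are linear contrasts on weeks, scaled to the whole span. Errors of log2 changes are SE from this fit. The genes named were drawn from up to 6 called rises and falls per contrast with at least 10 CPM in 1 group, up to 4 members of each described list with the smallest p among S1 groups plus the most abundant, genes the study names, and 12 genes chosen after their values were seen. For the trend and steps the outer groups had to be free of overlap. All members and lists were chosen with earlier results of these data known. Of 39 lists 19 are described in the results and 9 more in the observations. Control mice are shared by all differences from Controls. Positions are GRCm38, GENCODE vM21. Over 111 pairs of replicates the lowest chi-square per degree of freedom was 25.7. Probes of close copies (major urinary proteins, SAA1 and SAA2, amylases) may share reads.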

Additional observations from a re-analysis of the deposited data

Results flagged for a closer look

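Single libraries stood far from the others of their group of 6 in 39 of 176 groups of values looked at. The values were untransformed CPM, partly of related genes and of genes chosen for large changes, so no chance rate is set beside this count. Mouse 27 of S1-57 and mouse 31 of S1-78 stood out in the same genes and markers. AFP was at 550.9 and 2177 CPM, GRIA3 at 781.8 and 740.6 CPM, TRIB3 at 896.9 and 1040 CPM and the summed brain and neural markers at 1344 and 1364 CPM. Mouse 27 also stood out in CKM (19.23 CPM) and UBE2C (27.77 CPM), and mouse 31 in IGFBP3 (1135 CPM) and the macrophage markers (2910 CPM). Mouse 32 of S1-78 stood out in TK1 (1413 CPM), NDUFA1 (6373 CPM), HSPD1 (93.99 CPM) and SERPINE2 (56.39 CPM). Mouse 17, mouse 19 and mouse 36 stood out in CELA2A (657.6, 345.2 and 2882 CPM) and the summed pancreas markers (7753, 4649 and 35264 CPM), and mouse 36 in CKM (2351 CPM). Mouse 17 was also the highest of S1-10 in CKM (5.152 CPM), and mouse 19 of S1-32 in MDM2 (123.8 CPM), DPM1 (629 CPM) and NDUFA1 (2519 CPM).

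Acute phase genes stood out in mouse 15 of S1-10, with SAA1 at 159953, SAA2 at 107340, LCN2 at 6491 and HP at 8085 CPM, and in mouse 34 of S1-78, with SAA1 at 36788, SAA2 at 17463 and HP at 4168 CPM. SAA1 was also high in mouse 25 of S1-57 (10132 CPM). The remaining ones were UBE2C in mouse 13 of S1-10 (4.229 CPM), CYP4A14 in mouse 22 of S1-32 (31.29 CPM), the macrophage markers in mouse 22 (1791 CPM, the lowest of its group) and the hepatocyte markers in mouse 33 of S1-78 (167710 CPM).

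The S1 and Control trends differed by the interaction test in 231 genes, and the difference changed over the 4 ages in 189. Among the genes described, the S1 trend was higher by a log2 of 9.531 for CKM, 8.558 for AFP, 8.127 for TNNI2, 7.876 for GXYLT2, 7.760 for DRD2, 7.583 for KIF5C, 4.938 for COL1A1, 4.922 for IGFBP6, 4.898 for TRIB3, 4.339 for UBE2C, 3.848 for COL1A2, 3.342 for COL3A1, 2.886 for CTNND1, 2.742 for IGFBP3, 2.698 for CYP3A11, 2.377 for MDM2, 2.247 for SDPR, 2.170 for DDIT3, 1.879 for RBM12B1 and 1.870 for HSPD1. It was lower, with values of -9.312 for SAA2, -8.550 for LCN2, -8.310 for ENPP6, -7.462 for SAA1, -5.783 for CES2H, -4.419 for SERPINE2, -3.224 for HP, -1.764 for DPM1 and -1.179 for APOE. Without mouse 68, CKM (4.14), TNNI2 (6.39), GXYLT2 (5.12), DRD2 (1.51), KIF5C (4.24), UBE2C (0.74), SAA1 (-7.11), CES2H (-5.45), DDIT3 (1.16), MDM2 (1.57), HSPD1 (1.40), APOE (-0.93) and DPM1 (-1.82) were not called. Mouse 86 ended the calls of APOE (-0.93) and DPM1 (-1.26), mouse 36 those of CKM (3.22) and TNNI2 (2.20), mouse 31 those of KIF5C (2.04), DDIT3 (1.70) and MDM2 (2.04), and mouse 32 those of DRD2 (6.93), DDIT3 (2.05) and HSPD1 (1.58). DDIT3 also lost its call without mouse 14 (2.08) or 18 (2.12), and HSPD1 in 18 further fits without 1 library.

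Genes outside the tested 2205 also carried signal. In mouse 36 the 11 pancreas genes outside them summed to 8462 CPM, against at most 103 CPM in a Control, and the 8 muscle genes to 2122 CPM, against at most 92.8 CPM.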

How the results depend on the processing

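Counts moved beyond 1.5 times as follows, and the cause was not tested. For genes differing among the 4 S1 groups (181) the count was 323 with DESeq2, 59 with all 78 libraries, 322 with the compared groups alone, 117 without mice 17, 19 and 36, 9 without mice 27 to 32 and 16 without mice 27, 28, 31 and 32. For the S1 trend (251) these were 380, 98, 472, unmoved (178), 13 and 20, with 387 when log2 total count was a covariate. For S1-57 against S1-32 (78) they were 250, 1, 177, 27, and with edgeR 0 and 0 (13 and 174 at an unadjusted p under 0.05), with 139 for upper-quartile factors, 36 unfiltered, 0 for log2 total count (152 at an unadjusted p under 0.05) and 134 without Control mice 68, 75, 82 and 84. For S1-78 against S1-10 (54) they were 103, 7, 88, 9, 15 and 15, with 24 for RLE, 33 for upper-quartile factors, 241 for log2 total count and 28 for the number of detected genes. For S1-32 against S1-10 (0 with edgeR, 18 at an unadjusted p under 0.05) the count was 1 with DESeq2, the groups alone, the Spearman covariate or without the 4 Control mice, and for S1-78 against S1-57 (0 with edgeR, 101 at an unadjusted p under 0.05) it was 3 with DESeq2, 6 with the Spearman covariate, 2 unfiltered and 4 without mice 27, 28, 31 and 32. For the Control trend (115) it was 191 with DESeq2, 59 with all libraries and 229 with the Spearman covariate. For the difference of trends (231) it was 408 with DESeq2, 354 with upper-quartile factors, 82 with the Spearman covariate, 26 with log2 total count, 54 and 83 without the 6 and the 4 S1 mice and 73 without the 4 Control mice. For the change over the 4 ages (189) the values in the same order were 402, 301, 47, 16, 30, 54 and 42, and 96 with all libraries. For the mean difference (462) the count was 235 with all libraries and 767 and 722 without the 6 and the 4 S1 mice. With 1 library left out the counts ran from 107 to 270 (any difference), 109 to 306 (trend), 0 to 0, 3 to 240 and 0 to 8 (the 3 steps, edgeR), 14 to 78 (S1-78 against S1-10), 75 to 134 (Control trend), 62 to 299 (difference of trends), 110 to 274 (4 ages) and 382 to 596 (mean difference). Direction reversed without mice 27 to 32 for AFP (-0.087 in the middle step, -0.536 in the mean difference), CTNND1 (-0.054, mean difference), FOSL1 (-0.554 trend, -1.887 step), GDF15 (-0.342), KIF5C (-0.201) and MAFF (-1.237, trends), GRIA3 (-0.881) and MDM2 (-0.011, steps). Without mice 27, 28, 31 and 32 it reversed for AFP (-0.300, mean difference), GRIA3 (-0.039, step), KIF5C (-0.359) and MAFF (-0.934, trends), and without mice 17, 19 and 36 in the mean difference for AMY2A4 (-0.511), CEL (-0.138), CELA2A (-0.051), CELA3B (-0.269), CPA1 (-0.415) and CTRB1 (-0.131). Of 182 called values of named genes, 175 kept direction and call with RLE factors, 182 with DESeq2, 166 unfiltered, 110 with all 78 libraries, 177 with upper-quartile factors, 178 with the groups alone, 120 with log2 total count, 148 with the Spearman covariate, 163 with detected genes, 154 without mice 68, 75, 82 and 84, 81 without mice 27, 28, 31 and 32, 67 without mice 27 to 32 and 134 without mice 17, 19 and 36. Among rising and falling trend genes the split was 317 and 155 with the groups alone and 268 and 119 with log2 total count. Leaving out mice in groups and the Spearman and detected-gene covariates were chosen after seeing the data. No paired analysis was possible because each mouse gave 1 library. Low counts limit genes under 10 CPM, which in S1-10 were 85 of the rising trend genes and 561 of all 2205.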

Other observations

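Other gene lists gave these counts, with no list tested as a whole. All genes were called higher and lower in 10.2% and 1.18% for the trend, 7.07% and 3.40% for the difference of trends and 10.0% and 10.9% for the mean difference, with the median of all genes at 0.08 for the trend and for the difference of trends and 0.07 for the mean difference. Of 51 genes of phase 1 and 2 xenobiotic metabolism, 10 were lower and none higher in the mean difference after withdrawal (median -0.19). Of 20 genes of coagulation and serpins, 4 were higher in the mean difference (0.20) and 5 lower in the difference of trends (-1.12). Of 11 genes of bile acid metabolism and transport, 3 were higher in the mean difference (0.27) and 2 lower in the difference of trends (-1.01). Of 25 targets of NRF2, the regulator of antioxidant genes, 5 were higher and 3 lower in the difference of trends (0.05), and 1 was higher and 5 lower in the mean difference (-0.05). Of 29 genes of insulin and energy signalling, 7 rose along the trend (0.38). Of 29 interferon-stimulated and antigen presentation genes, 3 rose along the trend (0.09), near the share of all genes.

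Of 9 female-biased liver genes 1 rose along the trend, a share near the 10.2% of all genes. None of 22 male-biased liver genes was called by edgeR, where the trend called 251 genes (11.4%) in all. In the mean difference, 3 of the 9 were lower and the 22 were 4 higher and 4 lower. Some of these are major urinary proteins, whose probes may share reads. MUP8 had medians of 75625, 90619, 112483 and 49574 CPM in the S1 groups and 100867, 433514, 171469 and 246653 CPM in the Control groups, and was chosen after its values were seen. Erythroid markers, which come with blood in the section, summed to medians of 848, 829, 600 and 2184 CPM in the 4 S1 groups, with no call among 5 genes along the trend by edgeR.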
